A study of Mus musculus with 23 samples.

Results

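The comparison described here sets the brain cells that were dimly positive for a fluorescent antibody against the cells that were negative for it, 24 hours after an intravenous dose. The antibody, ATV-TfR, binds the transferrin receptor. Its members are 4 libraries, the low and the negative bin of pools 1 and 2, and they gave 49846 barcodes with at least 500 genes, at least 800 UMIs (unique molecular identifiers, 1 per captured RNA molecule) and at most 10% mitochondrial UMIs, of 249715 such barcodes in the 23 libraries of the series. Removal of likely doublets left 46239 cells. The negative bin kept 8459 cells in pool 1 and 6370 in pool 2, and the low bin kept 14834 and 16576.

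All animals were 12 weeks old (3.3 months in the labels) and were given an AF647-labelled antibody at 45 mg/kg. The ATV-TfR mice carried a mouse/human knock-in of the transferrin receptor (TfR mu/hu KI) and received DNP02_hIgG1_LALAPG_ATV35.23.2 - Alexa647. Another group, ATV-CD98hc, carried the corresponding knock-in of CD98hc (CD98hc mu/hu KI) and received DNP02 LALAPG LLB2-10-8 monovalent - Alexa647. The control IgG group was C57BL/6 and received DNP02_hIgG1_LALAPG_Alexa647, so treatment and genotype cannot be told apart. Brains without olfactory bulbs, cerebellum, pons and medulla were taken after perfusion with saline and dissociated in the presence of inhibitors of transcription and translation. Each pool joined 1 male and 1 female mouse before sorting, so that the ATV-TfR libraries come from 4 mice and both bins of a pool hold cells of the same animals. About 30% of live cells were AF647 positive in ATV-TfR mice, about 20% in ATV-CD98hc mice and about 1% in control IgG mice. The positive ATV-TfR cells were divided into tertiles, of which the low bin is the dimmest, and the same gates were applied to all groups. The control IgG negative bin has 1 library here (replicate 2).

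The transferrin receptor carries iron-loaded transferrin into cells by clathrin-mediated endocytosis, and brain capillary endothelium, which holds much of it, passes part of this cargo on to the tissue behind. An antibody transport vehicle (ATV) uses that route by binding the receptor through its Fc part. Astrocytes ensheathe the capillaries with their endfeet, pericytes and smooth muscle cells wrap the vessels, microglia are the resident macrophages, and oligodendrocytes form myelin and take up much iron. LALAPG denotes Fc mutations that weaken binding to Fc gamma receptors.

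The 4 libraries held 29394103 to 83983229 UMIs, with a median of 3829 to 4118 UMIs per barcode. Doublet removal took 4.30% to 8.18% of barcodes. Barcode sequences occurring in 2 of the 4 libraries numbered 12 to 85 per pair, or 0.180% to 0.601% of the smaller library. The dye signal itself is not among the values used here, so the bin of a cell rests on the sort. Cells of the negative and low bins of all 3 treatments, 107291 in all, were clustered together, and clusters were named from marker lists, each name carrying the ending "-like". Clusters that reached no list, held markers of 2 lists or had more markers of another list among their leading genes (2.42% of cells in all) were left unnamed and count only in the denominators of shares. Some of them carried many markers of a class, such as a cluster of 446 cells led by hemoglobin genes with 12 of 12 astrocyte markers.

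Astrocyte-like cells were the largest class of the low bin. They made up 18.2% and 29.8% of the cells in the negative bin (pools 1 and 2) and 83.8% and 88.4% in the low bin, a mean of 24.0% ± 8.17 against 86.1% ± 3.24 (SD, n = 2 pools each). Both low libraries lay far above both negative ones, and the fitted log2 change was 1.84 (SE 0.48, edgeR adjusted p = 7e-04). Most of the dimmest positive cells of these mice thus carried astrocyte markers. Of the 18 named classes, 11 had an adjusted p below 0.05 (61.1%), 4 of them with a higher share in the low bin (22.2%) and 7 with a lower one (38.9%).

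**Figure D1:**
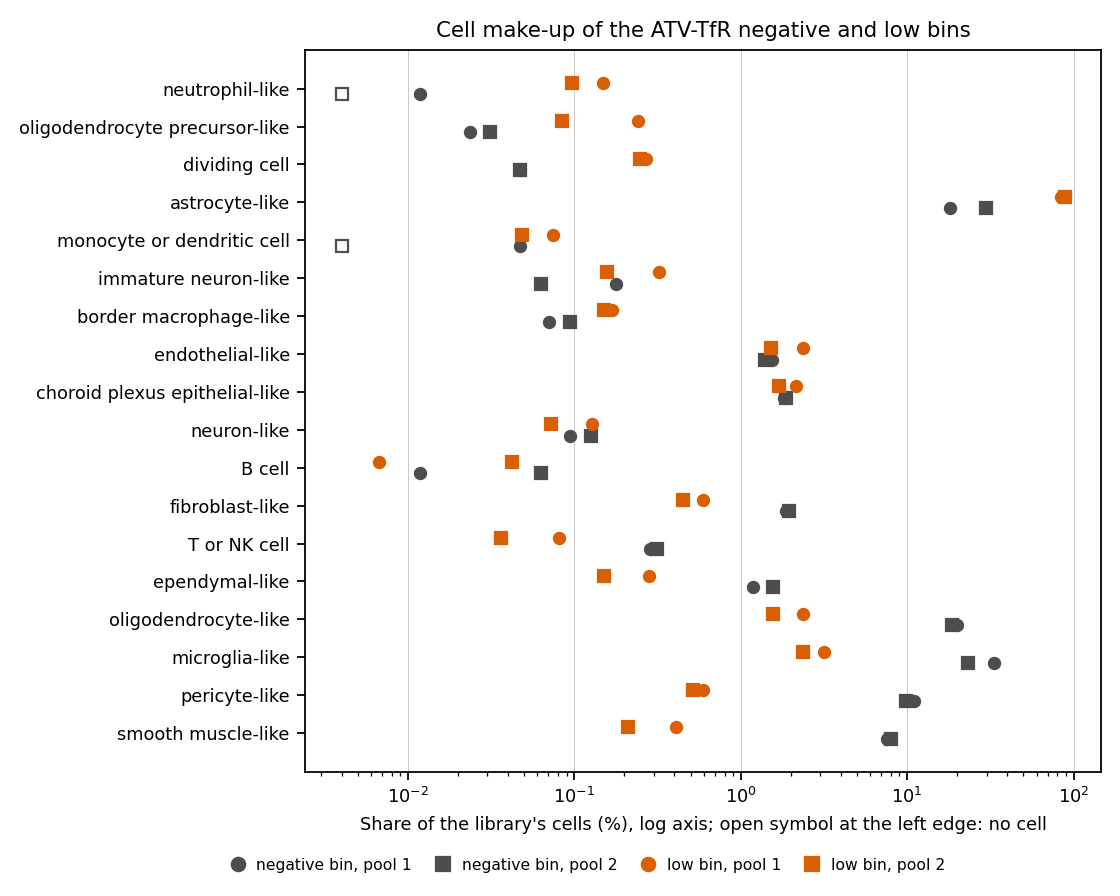
Share of each named cell class in the cells of a library (horizontal log axis, percent) for the ATV-TfR negative bin (grey) and low bin (orange), 1 symbol per pool. Astrocyte-like cells sit at 83.8% and 88.4% in the low bin, while smooth muscle-, pericyte-, microglia- and oligodendrocyte-like cells lie far to the left of their negative-bin shares.

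The classes with lower shares included both kinds of mural cell, the contractile cells on the outside of vessels. Smooth muscle-like cells made up 7.57% and 8.04% of the negative bin and 0.411% and 0.211% of the low bin (log2 change -4.65, SE 0.56, adjusted p = 1.5e-11). Pericyte-like cells made up 10.97% and 9.86% of the negative bin and 0.593% and 0.519% of the low bin (log2 change -4.23, SE 0.54, adjusted p = 8.9e-11). These were the largest decreases among the 18 classes. Microglia-like cells, 33.4% and 23.3% of the negative bin, were 3.16% and 2.37% of the low bin (log2 change -3.36, SE 0.51, adjusted p = 2e-08). Oligodendrocyte-like cells went from 20.0% and 18.7% to 2.38% and 1.56% (log2 change -3.30, SE 0.51, adjusted p = 2.6e-08). The negative and low libraries of these 4 classes did not overlap, and all 4 calls held with each library of the fit left out.

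Ependymal-like cells, which line the ventricles, made up 1.19% and 1.57% of the negative bin and 0.283% and 0.151% of the low bin (log2 change -2.67, SE 0.54, adjusted p = 1.1e-05). Fibroblast-like cells made up 1.87% and 1.96% against 0.593% and 0.453% (log2 change -1.87, SE 0.50, adjusted p = 9.1e-04). Their main clusters moved in opposite directions, from 158 and 118 to 21 and 15 cells in that led by Slc6a13 and from 0 and 7 to 67 and 60 cells in that led by Coch. T or NK cells were few, 24 and 20 cells in the negative bin and 12 and 6 in the low bin, or 0.284% and 0.314% against 0.0809% and 0.0362% (log2 change -2.34, SE 0.64, adjusted p = 0.001). With a stricter removal of doublets (scores above percentile 90), the T or NK cell value turned to 5.44 (adjusted p = 0.013), so its direction was not stable.

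Choroid plexus epithelial-like cells, which make cerebrospinal fluid, had nearly the same share in both bins, 1.82% and 1.87% in the negative and 2.16% and 1.69% in the low bin (log2 change 0.06, SE 0.48, adjusted p = 0.90). Endothelial-like cells, the lining of blood vessels, made up 1.54% and 1.40% of the negative and 2.38% and 1.53% of the low bin (log2 change 0.41, SE 0.48, adjusted p = 0.47). For both classes the libraries of the bins overlapped. Border macrophage-like cells, the macrophages of meninges and perivascular spaces, numbered 6 and 6 cells in the negative and 25 and 25 in the low bin (log2 change 0.96, SE 0.69, adjusted p = 0.23). Immature neuron-like cells numbered 15 and 4 against 48 and 26 (log2 change 0.93, SE 0.62, adjusted p = 0.21).

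Among rare classes, dividing cells were 4 and 3 cells of the negative bin and 40 and 41 cells of the low bin, or 0.0473% and 0.0471% against 0.270% and 0.247% (log2 change 2.42, SE 0.73, adjusted p = 0.0023). Their call was lost among female cells alone (adjusted p = 0.25). Oligodendrocyte precursor-like cells, the progenitors of myelinating cells, were 2 and 2 cells against 36 and 14 cells (log2 change 2.53, SE 0.84, adjusted p = 0.0057). That call was lost without low pool 1 (adjusted p = 0.20), negative pool 1 (0.10) or negative pool 2 (0.063), and among female cells alone (0.22). Neutrophil-like cells were 1 and 0 cells against 22 and 16, a ratio of shares of 17.9 with a 95% interval of 3.03 to 727 that covers counting error only (adjusted p = 0.0015), and this call rests on 1 cell in the negative bin. B cells (1 and 4 against 1 and 7), monocytes or dendritic cells (4 and 0 against 11 and 8) and neuron-like cells (8 and 8 against 19 and 12) were few and were not called. For scale, 0 cells of the 14829 in the negative bin allow a share of up to 0.0202%, and 0 of the 31410 in the low bin up to 0.00955%, again for counting error only.

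Since astrocyte-like cells filled most of the low bin, every other share is pressed down there. Shares were therefore also taken among the cells outside the astrocyte-like class, and the count of classes then became 9 higher and 3 lower in the low bin, in place of 4 and 7. The mural classes stayed lower. Pericyte-like cells were 13.4% and 14.04% of the remaining cells in the negative bin and 3.67% and 4.48% in the low bin (log2 change -1.75, SE 0.43, adjusted p = 1.9e-04), and smooth muscle-like cells 9.25% and 11.4% against 2.55% and 1.82% (log2 change -2.23, SE 0.46, adjusted p = 9.6e-06). Microglia-like cells were 40.9% and 33.2% against 19.5% and 20.5% (log2 change -0.89, SE 0.41, adjusted p = 0.046), and oligodendrocyte-like cells 24.5% and 26.6% against 14.7% and 13.4% (log2 change -0.86, SE 0.41, adjusted p = 0.051). Among these cells endothelial-like cells were 1.88% and 1.99% of the negative and 14.7% and 13.2% of the low bin (log2 change 2.85, SE 0.44, adjusted p = 3e-08). Choroid plexus epithelial-like cells went from 2.23% and 2.66% to 13.4% and 14.6% (log2 change 2.52, SE 0.44, adjusted p = 4.6e-07). Border macrophage- (log2 change 3.41, adjusted p = 1e-06) and immature neuron-like cells (3.36, 2.2e-07), not called among all cells, were called higher here. The same held for monocytes or dendritic cells (3.56, 1.3e-04) and neuron-like cells (2.30, 7.4e-04), both few in number. Dividing, oligodendrocyte precursor- and neutrophil-like cells were again called higher. The fibroblast-like value turned to 0.58 (adjusted p = 0.21) and the T or NK cell value to 0.08 (adjusted p = 0.90), and the ependymal-like call was lost (log2 change -0.26, adjusted p = 0.62).

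Another view weights the share of a class in each bin by the approximate size of that bin before sorting. With about 30% positive cells, the low tertile is about 10% and the negative bin about 70% of live cells. The share of a class in these 2 bins together that would then lie in the low bin is highest for rare classes, at about 74.7% of neutrophil-like, 45.9% of oligodendrocyte precursor-like and 43.9% of dividing cells. These values rest on 1, 4 and 7 cells of the negative bin, so their rank above astrocyte-like cells is not secure. The share is about 33.9% for astrocyte-like cells, against 16% of endothelial-like, 13% of choroid plexus epithelial-like, 1.43% of oligodendrocyte-like, 1.37% of microglia-like, 0.757% of pericyte-like and 0.567% of smooth muscle-like cells. These figures rest on the rounded percentages of the labels and on shares of the kept cells. They take capture in droplets and passage through the filters as equal for all cells, so they are a rough guide and not a measurement.

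The same bins in the other treatments show which of these contrasts were shared. The difference between the ATV-TfR and the ATV-CD98hc change was called for 7 of 18 classes (38.9%), 3 with a higher and 4 with a lower value in ATV-TfR. Microglia-like cells differed most from ATV-CD98hc among the common classes. In ATV-CD98hc mice they made up 10.5% and 7.501% of the negative bin and 12.9% and 11.1% of the low bin, against the fall from 33.4% and 23.3% in ATV-TfR mice (difference of log2 changes -3.77, SE 0.68, adjusted p = 3.1e-06). In control IgG mice, however, they fell as in ATV-TfR mice, from 9.16% of the negative library to 1.23% and 0.786% of the low bin. The difference of ATV-TfR from control IgG was -0.15 for microglia-like and -0.31 for pericyte-like cells. Endothelial-like cells were 1.32% and 1.86% of the ATV-CD98hc negative and 13.2% and 13.3% of its low bin (difference -2.66, SE 0.70, adjusted p = 0.0011). The endothelial, fibroblast and T or NK cell differences were no longer called among the cells outside the astrocyte-like class (adjusted p = 0.37, 0.54 and 0.85). Pericyte- and smooth muscle-like cells went down in ATV-CD98hc mice too, from 5.47% and 8.16% to 0.346% and 0.501% and from 3.95% and 4.23% to 0.0391% and 0.0747%. For them the difference from ATV-TfR was not called (adjusted p = 0.79 and 0.12), but that of smooth muscle-like cells was with the pool as a replicate block (1.44, adjusted p = 0.014).

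Astrocyte-like cells made up 54.9% and 54.5% of the ATV-CD98hc negative bin and 65.7% and 69.5% of its low bin. The difference from ATV-TfR was 1.54 on the log2 scale (SE 0.66, adjusted p = 0.051), and it was called with the pool as a replicate block (1.58, adjusted p = 5.5e-05). Dividing and immature neuron-like cells differed as well, with 0 and 2 dividing and 0 and 0 immature neuron-like cells in the ATV-CD98hc low bin of 34082 cells. In control IgG mice, where few cells were positive, the low bin was of another kind. It held 9 and 15 astrocyte-like cells (0.410% and 0.393%) against 44.0% of the negative library (difference 8.62, SE 0.82, adjusted p = 5.3e-16), and 48.9% and 62.5% endothelial-like and 17.3% and 11.1% choroid plexus epithelial-like cells. The difference from control IgG was called for 10 of 18 classes (55.6%), but for 5 without negative pool 1 and 6 without negative pool 2 of ATV-TfR. With the replicate block, the differences of endothelial- (-1.06, adjusted p = 0.027), ependymal- (-1.79, 0.027) and smooth muscle-like cells (-1.71, 0.024) from control IgG were called as well.

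**Figure D2:**
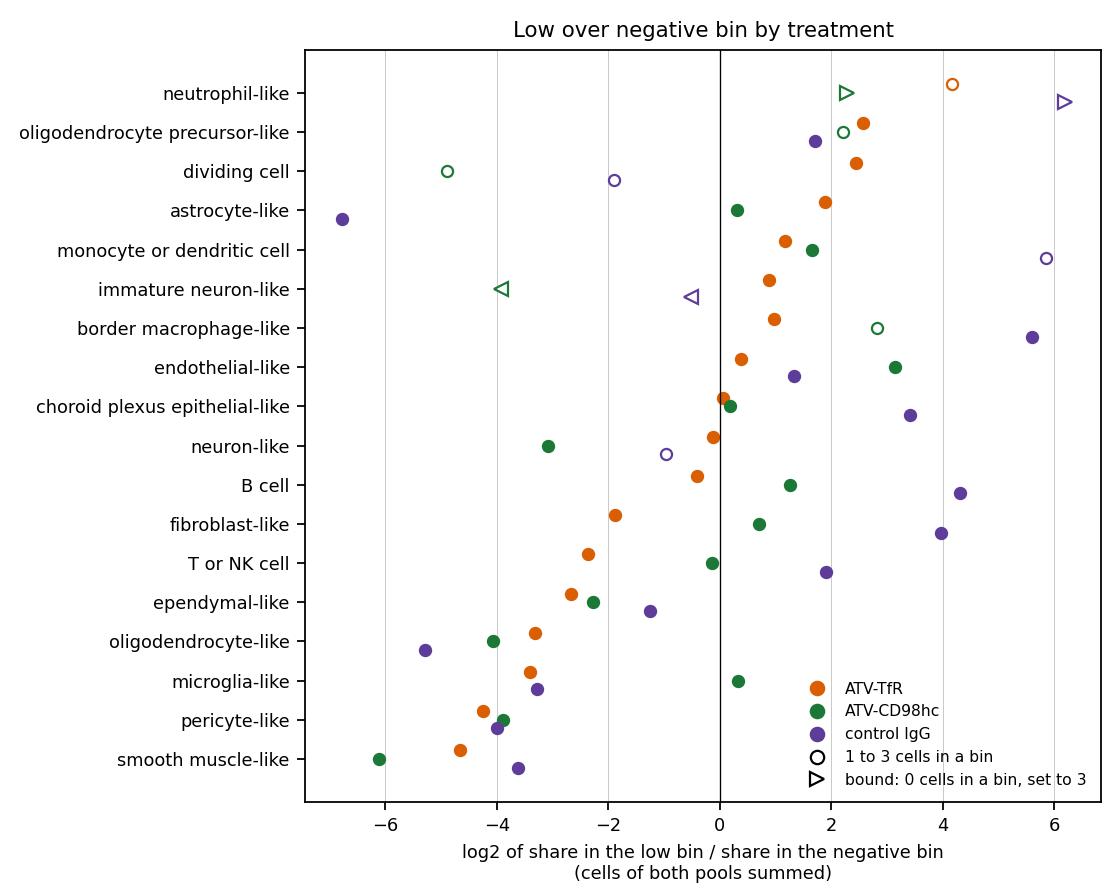
Log2 ratio of the share of each class in the low bin to its share in the negative bin, with the cells of the pools summed, for ATV-TfR (orange), ATV-CD98hc (green) and control IgG (purple). Open circles rest on 1 to 3 cells in a bin and triangles are bounds from a bin with 0 cells. Microglia-like cells lie near 0 in ATV-CD98hc and near -3.4 in ATV-TfR, with control IgG close to the latter.

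Expression was then compared between the bins within each class that had at least 20 cells in all 4 libraries, on UMIs summed per library. Levels below are in CPM, the UMIs of a gene scaled to a fixed total of UMIs of the class in a library. A gene was called at an edgeR adjusted p below 0.05. In astrocyte-like cells 3 of 17469 genes were called higher in the low bin (0.0172%) and 232 lower (1.33%). In microglia-like cells 1009 of 12951 genes were called higher (7.79%) and 76 lower (0.587%), and in oligodendrocyte-like cells 994 of 12018 higher (8.27%) and 119 lower (0.990%). Fibroblast-like cells gave 1056 of 10695 higher (9.87%) and 767 lower (7.17%), and ependymal-like cells 634 of 6831 higher (9.28%) and 517 lower (7.57%). The remaining classes had totals between those of astrocyte- and microglia-like cells. Choroid plexus epithelial-like cells gave 350 of 11769 higher (2.97%) and 255 lower (2.17%), and endothelial-like cells 265 of 11893 higher (2.23%) and 130 lower (1.09%). Smooth muscle-like cells gave 420 of 11152 higher (3.77%) and 43 lower (0.386%), and pericyte-like cells 232 of 10378 higher (2.24%) and 9 lower (0.0867%).

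Many of the genes called higher in the other classes were genes typical of astrocytes. The summed level of the 12 astrocyte markers in microglia-like cells was 610.5 and 827.1 CPM in the negative bin and 2988 and 4156 CPM in the low bin, and 12 of 12 markers were called higher. In oligodendrocyte-like cells the sum was 331.7 and 407.7 against 1991 and 2960 CPM (12 of 12 higher), in endothelial-like cells 383.6 and 327.3 against 2173 and 3515 CPM (9 of 12 higher), and in choroid plexus epithelial-like cells 299.6 and 546.6 against 1927 and 1950 CPM (12 of 12 higher). In all 8 classes other than the astrocyte-like one, both low libraries lay above both negative ones. None of the 12 markers was at 0 in any of these classes. Astrocyte-like cells themselves held 20620 and 20050 against 21190 and 21350 CPM, with 0 of 12 markers called.

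**Figure D3:**
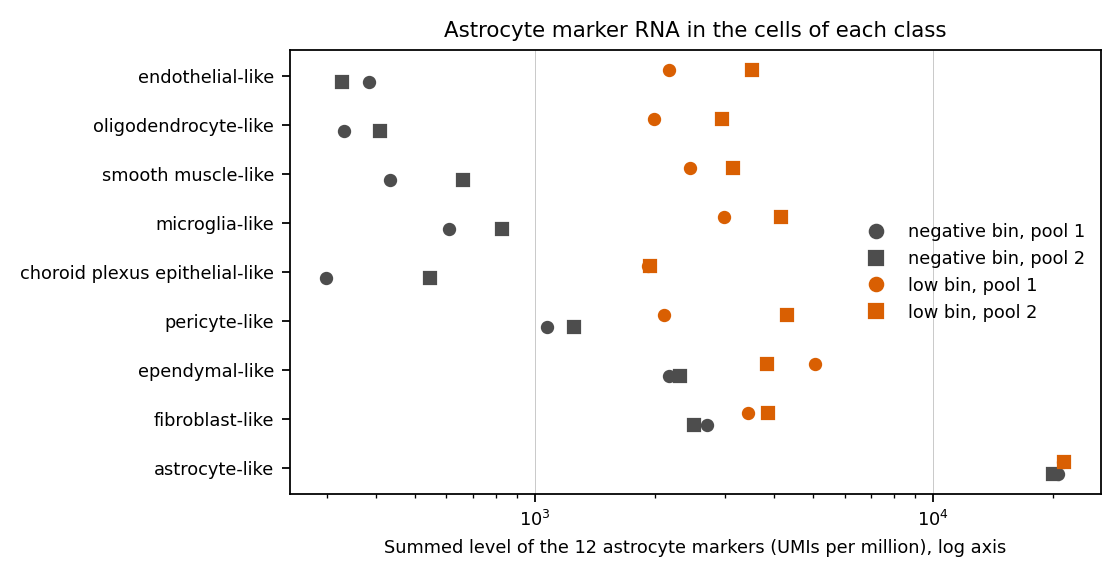
Summed level of the 12 astrocyte markers (horizontal log axis, CPM) in the cells of each class, for the negative bin (grey) and the low bin (orange), 1 symbol per pool. Outside the astrocyte-like class each low library lies to the right of both negative libraries.

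Genes whose highest level over all classes was in astrocyte-like cells (levels taken from the negative libraries of the other treatments) made up 6.09% to 8.75% of the genes tested in a class. Among genes called higher they were 421 in microglia-like cells (41.7%), 406 in oligodendrocyte-like (40.8%), 221 in choroid plexus epithelial-like (63.1%), 173 in endothelial-like (65.3%), 149 in pericyte-like (64.2%), 237 in smooth muscle-like (56.4%), 261 in fibroblast-like (24.7%) and 151 in ependymal-like cells (23.8%). Beside this, an ambient share of UMIs was estimated per class and library from markers of other classes, relative to the profile of the library's cells. No empty droplets were used, so it cannot tell free RNA from that of doublets. The share was larger in both low than in both negative libraries in the classes named here except pericyte- and smooth muscle-like cells. In microglia-like cells it was 3.90% and 3.35% against 9.18% and 12.0%, and in endothelial-like cells 4.30% and 6.03% against 12.2% and 13.6%. In pericyte-like cells it was 7.99% and 6.41% against 4.31% and 19.3%, and in smooth muscle-like cells 2.79% and 2.77% against 5.80% and 0%. With an ambient profile subtracted, 4 higher (0.0371%) and 26 lower (0.241%) calls were made in choroid plexus epithelial-like cells, 8 (0.0711%) and 18 (0.16%) in endothelial-like and 26 (0.264%) and 1 (0.0102%) in pericyte-like cells. In smooth muscle-like cells they were 248 (2.29%) and 13 (0.12%), in oligodendrocyte-like cells 387 (3.35%) and 30 (0.26%) and in microglia-like cells 499 (3.96%) and 11 (0.0874%). Fibroblast-like cells had the most, 747 (7.28%) and 701 (6.83%), followed by ependymal-like cells with 534 (8%) and 442 (6.62%). The genes named below are therefore mostly a class's own genes or members of gene lists. The lists were chosen with earlier results of these data known, so counts of their called members are not independent of the data. Own genes are those whose level in the class is at least 0.5 times that in every other class. Counts over all genes tested, marker sums and some other called genes are given beside them.

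**Figure D4:**
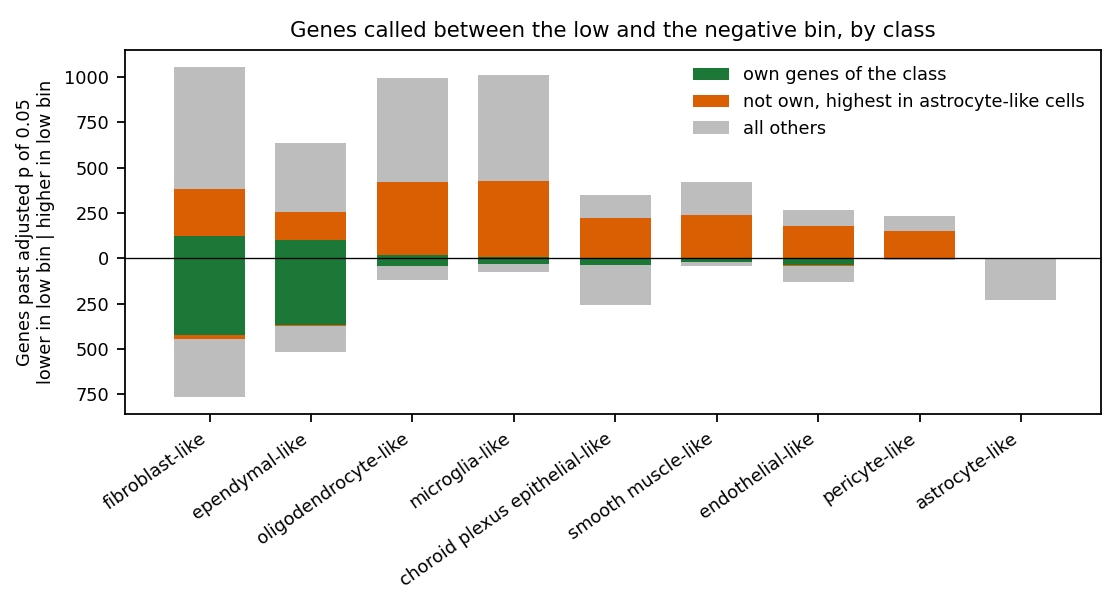
Number of genes called between the low and the negative bin in each class, higher above and lower below the line. Green marks own genes of the class, orange genes that are not own and are highest in astrocyte-like cells, and grey all others; orange fills much of the higher calls and almost none of the lower ones.

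Single libraries moved these counts. The astrocyte-like count of 235 (1.35% of genes tested) became 129 without low pool 2, 104 without negative pool 1 and 121 without negative pool 2. The microglia-like count of 1085 (8.38%) became 697 without low pool 1, 378 without low pool 2 and 594 without negative pool 1, and with the pool as a replicate block it was 1677 (1450 higher, 227 lower). Endothelial-like calls (395, 3.32%) became 211, 143 and 115 without low pool 2, negative pool 1 and negative pool 2, and choroid plexus epithelial-like calls (605, 5.14%) became 312, 398 and 403 without low pool 1, low pool 2 and negative pool 1. Ependymal-like calls (1151, 16.8%) became 644, 634 and 718 and smooth muscle-like calls (463, 4.15%) became 230, 238 and 301 without the same 3 libraries. The oligodendrocyte-like count (1113, 9.26%) became 647 and the pericyte-like count (241, 2.32%) 31 without low pool 2, and the fibroblast-like count (1823, 17%) became 1151 without negative pool 1.

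Within astrocyte-like cells, few genes were called between dimly positive and negative cells. With sums per animal and the animal as a block, 1012 genes were called in place of 235 (451 higher, 561 lower). Of 4413 own genes tested, 2 were called (0.0453%), while 1194 of all genes tested had an unadjusted p below 0.05. Among own genes, 2342 reached a mean level of 5 or more in log2 CPM. Their log2 changes ran from -0.07 at percentile 5 to 0.19 at percentile 95, with a median of 0.06, and 99.9% of them lay within 0.5 of 0. Their median SE was 0.10. The cells behind these sums had a median depth of 4524 and 4021 UMIs in the negative and 3710 and 3946 UMIs in the low bin, and 2.15% and 2.25% against 2.41% and 2.44% mitochondrial UMIs. The mix of astrocyte-like clusters shifted in part, as a description without a test. A cluster led by Agt held 11.7% and 12.7% of the astrocyte-like cells of the negative and 19.2% and 20.4% of those of the low bin, and a cluster with Aldh1a1 among its leading genes 31.2% and 30.5% against 27.2% and 24.0%.

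The called own genes were Crym and Ccnjl. Crym encodes mu-crystallin, a thyroid hormone-binding protein, and was at 207.9 and 119.1 CPM in the negative and 85.9 and 91.1 CPM in the low bin. Both low values were below both negative ones, and the log2 change was -0.82 (SE 0.18, adjusted p = 0.046). The call was lost without negative pool 1, without either low pool and without 3 libraries of the other treatments (largest adjusted p 0.65), and with the ambient profile subtracted (0.25). Ccnjl, a cyclin-like gene, was at 42.6 and 39.7 against 29.9 and 28.3 CPM (log2 change -0.44, SE 0.10, adjusted p = 0.05 before rounding just under the threshold). It was lost without any 1 of the 4 ATV-TfR libraries and with the replicate block (0.088). It was named after its values were seen, as were the 3 genes called higher. Of these, Nnat was at 308.0 and 257.9 against 404.3 and 389.4 CPM (adjusted p = 0.025) and Rsph9, a part of the ciliary radial spoke, at 24.6 and 22.4 against 33.2 and 31.8 CPM (adjusted p = 0.043), and both calls were lost without any 1 of the 4 ATV-TfR libraries, that of Rsph9 also with the replicate block (0.060). Hbb-bs, a haemoglobin gene, was at 0.144 and 10.6 against 55.0 and 267.4 CPM (adjusted p = 0.0065) and its values also differed between the pools of a bin. Its call was lost without negative pool 1 (0.11).

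Of the 232 lower calls in astrocyte-like cells, 2 were own genes (0.862%, against 25.3% of the genes tested), and 68 (29.3%, against 5.90% of the genes tested) had their highest level in microglia-like cells. The summed oligodendrocyte markers were 398.0 and 408.5 CPM in the negative and 236.4 and 227.7 CPM in the low bin (8 of 10 lower), the summed microglia markers 184.4 and 152.4 against 108.0 and 112.9 CPM (6 of 10 lower) and the summed smooth muscle markers 78.0 and 48.2 against 14.1 and 12.6 CPM (5 of 8 lower). Oligodendrocyte-, microglia- and smooth muscle-like cells were among the 7 classes with a called lower share in the low bin. Marker sums did not always follow the shares. Summed pericyte markers overlapped between the bins, at 115.7 and 99.53 against 100.9 and 93.67 CPM (3 of 8 lower), although the pericyte-like share fell. Summed neuron markers were 38.91 and 35.79 against 24.99 and 18.68 CPM (2 of 10 lower), although the neuron-like share was not called. With the ambient profile subtracted, 1 gene was called higher (0.00589%) and 16 lower (0.0942%). The part of free RNA in the other calls was not tested.

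Of all genes tested in astrocyte-like cells 0.0172% were called higher and 1.33% lower, so 0 called members in a list is no result about that list. Of 25 lists, 4 held any called gene, namely myelin genes (10 lower of 12), homeostatic microglia genes (8 lower of 12), Fc receptors (Fcgr1, Fcgr3 and Fcer1g lower of 7) and lysosomal genes (Ctss lower of 27). After ambient subtraction only 1 myelin gene was left. The counts were 0 of 10 for transferrin receptor and iron import, 0 of 12 for iron export and storage, 0 of 24 for clathrin and endocytic sorting, 0 of 12 for other candidate shuttle receptors, 0 of 17 for endfoot and gap junction genes, 0 of 17 for reactive astrocyte genes, 0 of 19 for immediate early genes and 0 of 15 for interferon-stimulated genes. Their median log2 changes lay between -0.17 (immediate early genes) and 0.11 (reactive astrocyte genes), against 0.03 for all genes. Aqp4, the water channel of the endfeet, was at 645.9 and 598.3 CPM in the negative and 690.2 and 671.5 CPM in the low bin (log2 change 0.19, SE 0.10, adjusted p = 0.81). Fcgrt, the intracellular Fc receptor that recycles antibodies, was at 46.7 and 44.3 against 47.7 and 47.8 CPM (log2 change 0.13, SE 0.10, adjusted p = 0.93). In simulated sums of this depth the test found 55% of genes changed 2-fold and 100% of those changed 4-fold. The spread in that simulation was a set value, the same for all genes and not taken from these data. These shares therefore do not give the sensitivity of the test here.

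Tfrc, the transferrin receptor gene, was called between the bins in 1 of the 8 classes in which it was tested. Reads from the human part of the knock-in allele may not be counted, so these levels may be too low in all ATV-TfR cells. In astrocyte-like cells Tfrc was at 24.1 and 23.4 CPM in the negative and 30.8 and 32.0 CPM in the low bin, 23.8 ± 0.488 against 31.4 ± 0.842 (SD, n = 2). The bins did not overlap, but the log2 change of 0.46 (SE 0.12) had an adjusted p of 0.089. It was called with sums per animal and the animal as a block (adjusted p = 4.9e-04). Thinned to 1500 UMIs, 4.08% and 2.66% of astrocyte-like cells of the negative bin and 4.53% and 4.35% of those of the low bin had a Tfrc UMI. In oligodendrocyte-like cells, which take up much iron, Tfrc was at 16.4 and 19.2 against 30.5 and 31.9 CPM (log2 change 0.79, SE 0.19, adjusted p = 0.0076), and it was still called with the ambient profile subtracted (0.027). That call was lost without low pool 1, low pool 2 or negative pool 1, in male or female cells alone, in thinned cells, in the largest cluster and with DESeq2. Endothelial-like cells had the highest mean Tfrc level of these classes in either bin, with 51.0 ± 2.19 CPM in the negative and 39.1 ± 10.6 CPM in the low bin (log2 change -0.44, adjusted p = 0.61). Levels in microglia-like cells, 6.58 ± 2.17 and 8.12 ± 6.87 CPM, and in choroid plexus epithelial-like cells, 2.83 ± 2.50 and 4.99 ± 0.175 CPM, were lower. In the same bins of the other treatments, endothelial-like Tfrc was far higher, at 156.5 to 261.3 CPM in ATV-CD98hc and 498.6 to 608.1 CPM in control IgG mice. Astrocyte-like cells of ATV-CD98hc mice had 44.4 to 54.1 CPM. The parts of the knock-in allele and of the mix of endothelial-like clusters were not tested.

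The few microglia-like cells of the low bin (468 and 393 cells, against 2827 and 1484) held more RNA of genes known from activated microglia. Of 16 such genes tested, 9 were higher and 0 lower, with a median log2 change of 1.77 against -0.02 for all genes, where 7.79% of all genes tested were called higher and 0.587% lower. In these cells the median depth was 2953 and 2672.5 UMIs in the negative and 3042 and 3409 UMIs in the low bin, and the median mitochondrial share 1.06% and 1.37% against 1.53% and 1.67%, and their part was not tested. After ambient subtraction 7 of the 9 were still called, without Apoe (adjusted p = 0.056) and Ccl4 (0.051). The calls of Axl and Itgax were lost without low pool 2, as was that of Ccl4. Lgals3, Lpl, Cst7 and Spp1, described next, were not own genes of microglia-like cells. Their level in these cells was below 0.5 times that in another class, and the part of RNA from other cells was not tested. Lgals3, encoding galectin-3, was at 2.69 and 6.26 CPM in the negative and 41.7 and 113.4 CPM in the low bin (log2 change 4.28, SE 0.49, adjusted p = 9.1e-04). Lpl, lipoprotein lipase, was at 14.1 and 13.2 against 97.8 and 126.4 CPM (log2 change 3.07, SE 0.40, adjusted p = 9.1e-04). Cst7, the protease inhibitor cystatin F, was at 5.28 and 5.10 against 35.2 and 30.7 CPM (log2 change 2.70, SE 0.50, adjusted p = 0.0036). For these 3 genes both low libraries lay above both negative ones, and the calls held with each library left out. Spp1, osteopontin, was at 0.674 and 1.39 against 111.4 and 17.1 CPM (log2 change 6.11, SE 1.33, adjusted p = 0.010), and its call was lost without low pool 1 (0.26).

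**Figure D5:**
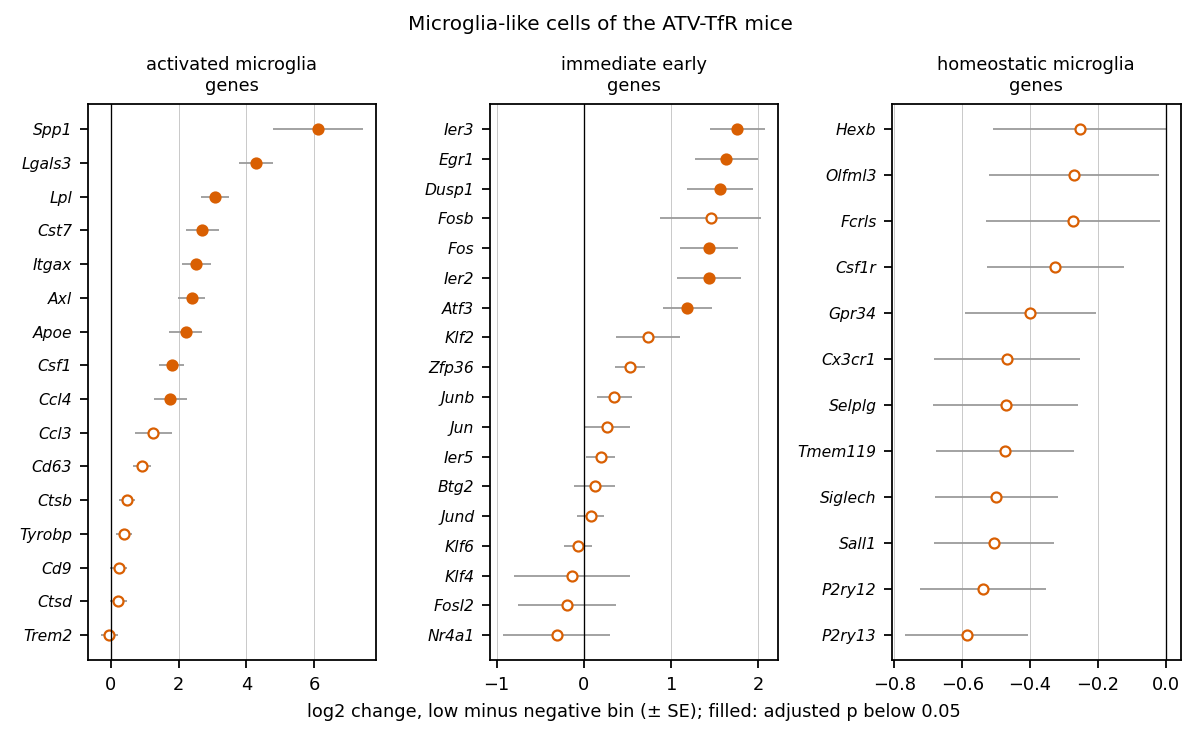
Log2 change (low minus negative bin, with SE) in microglia-like cells for activated microglia genes, immediate early genes and homeostatic microglia genes; filled points have an adjusted p below 0.05. Of the activated genes 9 of 16 and of the immediate early genes 6 of 18 are filled, all to the right of 0, and of the homeostatic genes 0 of 12.

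Immediate early genes, which cells switch on within minutes of a stimulus, were higher for 6 of 18 in microglia-like cells and lower for 0, with a median of 0.44, beside the same 7.79% of all genes tested called higher. Ier3 was at 17.4 and 9.74 CPM in the negative and 42.4 and 49.2 CPM in the low bin (log2 change 1.76, SE 0.32, adjusted p = 0.0033), and it was lost without low pool 2 (0.057). Egr1 (log2 change 1.63, adjusted p = 0.011), Dusp1 (1.56, 0.020) and Fos (1.43, 0.015) were each lost without 2 or 3 of the 4 ATV-TfR libraries. The rule for own genes named Atf3, a stress-induced transcription factor, at 34.4 and 25.04 against 60.0 and 72.4 CPM (log2 change 1.19, SE 0.28, adjusted p = 0.017), and Ccl4, a chemokine, at 66.0 and 112.0 against 295.2 and 281.4 CPM (log2 change 1.75, SE 0.49, adjusted p = 0.043). The other own genes called higher, named after their values were seen, were Tnf at 19.0 and 7.65 against 78.9 and 53.3 CPM (adjusted p = 0.014) and the olfactory receptor genes Olfr110 and Olfr111. The calls of these 5 own genes were each lost without at least 2 libraries. Own genes called lower were led by Sema4c (42.9 and 46.4 against 19.6 and 26.6 CPM, log2 change -0.90, adjusted p = 0.030), Zfp217 (-0.87, 0.042) and Riok2 (-0.85, 0.021), which were likewise lost without 3 or 4 of the ATV-TfR libraries. Sema4c (adjusted p = 0.084) and Zfp217 (0.085) were not called after ambient subtraction either.

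Homeostatic microglia genes were called for 0 of 12, and their median log2 change was -0.47, where 0.587% of all genes tested were called lower (2601 of all genes tested had an unadjusted p below 0.05). The summed microglia markers were 19670 and 21510 CPM in the negative and 14750 and 15610 CPM in the low bin. Markers of border macrophages, the other macrophages of the brain, were not higher, at 301.6 and 272.9 against 239.8 and 218.6 CPM in sum, with Lyve1 at 0. Markers of dividing cells were, at 9.77 and 3.71 against 101.0 and 50.5 CPM in sum, with 5 of 6 called higher. In the largest microglia-like cluster alone, Lgals3, Lpl, Cst7 and Spp1 were called as well. In that cluster lay 52.3% and 51.2% of the microglia-like cells of the negative and 50.9% and 52.2% of those of the low bin.

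In oligodendrocyte-like cells 0 of 12 myelin genes was called, where 8.27% of all genes tested were called higher and 0.990% lower. The own genes named by the rule were Klk6, a secreted serine protease, at 24.2 and 43.4 against 147.5 and 182.4 CPM (log2 change 2.27, SE 0.23, adjusted p = 3.8e-07), Shisa8 (1.34, 4.8e-04) and Enpp6, a choline phosphodiesterase of newly formed oligodendrocytes, at 72.4 and 68.2 against 159.6 and 150.0 CPM (log2 change 1.11, SE 0.16, adjusted p = 4.2e-05). Klk6 and Enpp6 are among the leading genes of a small cluster that held 3.30% and 3.87% of the oligodendrocyte-like cells of the negative and 16.2% and 19.4% of those of the low bin. Within the largest cluster alone, Klk6 was not called (log2 change 0.71) and Enpp6 had the opposite sign (-0.41, adjusted p = 0.36), while Shisa8 was called there. Lower own genes were Il33, an alarmin, at 942.8 and 805.5 against 414.4 and 465.7 CPM (log2 change -1.02, SE 0.16, adjusted p = 1.4e-04), Cobl, an actin nucleator (-0.93, adjusted p = 7.1e-04), and Gstp1, a glutathione transferase (-1.12, 0.012). Il33 was called under all 23 alternatives tried for it. Gstp1 was lost without low pool 1 or negative pool 2 and after ambient subtraction (adjusted p = 0.12).

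Among vascular cells, endothelial-like cells of the low bin had less Plvap, the diaphragm protein of fenestrated vessels, at 252.0 and 352.5 CPM against 1186 and 861.8 CPM in the negative bin (log2 change -1.80, SE 0.32, adjusted p = 0.0035). Exoc3l2 (220.7 and 141.3 against 48.2 and 58.2 CPM, log2 change -1.82, adjusted p = 0.003) and Esm1, endocan (275.0 and 103.6 against 71.5 and 51.9 CPM, log2 change -1.67, adjusted p = 0.0093), fell with it. These 3 genes lead a cluster that held 36.9% and 30.3% of the endothelial-like cells of the negative and 5.38% and 7.87% of those of the low bin, and the part of this shift in their values was not tested. A cluster led by Gkn3, with the arterial gene Sema3g, went from 47.7% and 50.6% to 65.2% and 65.3%, and a cluster led by Cldn5, with Slc38a5, from 12.3% and 15.7% to 26.4% and 25.98%. The calls of Plvap, Exoc3l2 and Esm1 were lost without negative pool 1, and that of Esm1 also without low pool 2 and after ambient subtraction (adjusted p = 0.074). Of 9 capillary genes 3 were lower (Ivns1abp, Car4 at log2 -1.14 and Rgcc at -1.09) and of 8 venous genes 2 (Slc38a5 at -1.52 and Tmsb10 at -1.35), where 1.09% of all genes tested were called lower. In the same cells the summed pericyte markers were 453.6 and 1363 against 331.8 and 146.1 CPM (5 of 8 lower) and the summed smooth muscle markers 425.6 and 1293 against 205.4 and 116.4 CPM (5 of 7 tested lower). The median depth was 3784 and 3464 against 2901 and 3222 UMIs. Their part in these counts was not tested. None of the 5 capillary and venous genes was called after ambient subtraction, and Car4, Rgcc, Slc38a5 and Tmsb10 were each lost without at least 2 libraries. Rad54b was higher (87.6 and 82.4 against 173.8 and 162.0 CPM, log2 change 0.95, adjusted p = 0.027), as was Glul, glutamine synthetase, which is highest in astrocyte-like cells (0.72, 0.020). Both were lost without any 1 of the 4 ATV-TfR libraries and after ambient subtraction (adjusted p = 0.065 and 0.074). Pericyte-like cells had 0 own genes called of 3437, where 2.32% of all genes tested were called in either direction, with 809 genes of all tested at an unadjusted p below 0.05. In smooth muscle-like cells (61 and 35 cells in the low bin) Tcf15, whose highest level is in endothelial-like cells, was higher (46.6 and 37.0 against 113.6 and 93.8 CPM, log2 change 1.23, adjusted p = 0.0016) and Olfr558 too (0.72, 0.037). Thbs1 (-1.95, 0.0018), Col8a1 (-1.47, 0.013) and Fos (-1.42, 0.046) were lower, and all 5 calls were lost without at least 1 ATV-TfR library. After ambient subtraction Olfr558 (adjusted p = 0.065), Col8a1 (0.057) and Fos (0.29) were not called.

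In choroid plexus epithelial-like cells 0 of 2349 own genes were called higher and 35 lower (1.49%), where 2.97% of all genes tested were called higher and 2.17% lower, with 1732 of all genes tested at an unadjusted p below 0.05. The median depth of these cells was 6200.5 and 5893 UMIs in the negative and 8153 and 8828.5 UMIs in the low bin, and the median mitochondrial share 2.76% and 2.96% against 2.21% and 2.22%. The summed pericyte markers were 278.1 and 392.2 against 39.1 and 36.3 CPM (7 of 8 lower). The summed microglia markers were 196.9 and 173.4 against 68.7 and 74.1 CPM (7 of 9 tested lower), while astrocyte markers rose, as given above. The part of these shifts was not tested. Htr2c, a serotonin receptor typical of this epithelium, was at 584.6 and 538.1 CPM in the negative and 204.5 and 243.6 CPM in the low bin (log2 change -1.39, SE 0.20, adjusted p = 5.5e-05). Gmnc, a regulator of multiciliated cells, was at 106.5 and 73.0 against 40.5 and 32.2 CPM (log2 change -1.39, SE 0.21, adjusted p = 1e-04). Both were still called after ambient subtraction (adjusted p = 0.022 for each) and with each library left out. Hs6st2 was at 53.6 and 51.8 against 16.1 and 27.7 CPM (-1.34, 0.0028), and it was lost without low pool 1 (0.080) and after ambient subtraction (0.086).

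The fibroblast-like cells of the bins lay mostly in different clusters. Most fibroblast-like cells of the negative bin (100% and 94.4%) lay in a cluster led by Slc6a13 and Dcn, and most of those of the low bin (76.1% and 80.0%) in a cluster led by Coch and Moxd1. The summed fibroblast markers were 14010 and 12870 CPM in the negative and 7568 and 5312 CPM in the low bin (7 of 8 lower), and the summed pericyte markers 7023 and 6197 against 235.4 and 259.7 CPM (5 of 8 lower, 1 higher). Their part and that of the cluster shift in the values that follow was not tested. Crabp1, a retinoic acid-binding protein, was at 0 and 31.9 against 293.3 and 242.6 CPM (log2 change 4.16, adjusted p = 5.5e-09), the transcription factor gene Gata6 at 2.49 and 4.78 against 70.6 and 75.8 CPM (4.27, 1.2e-08) and Mme, neprilysin, at 1.24 and 17.5 against 123.1 and 136.5 CPM (3.86, 4.7e-08). The Crabp1 value was 3.01 without negative pool 1 and 10.62 without negative pool 2, which leaves a negative library at 0, and that of Mme 2.82 and 6.52. Arhgap20 was lower, at 383.0 and 286.7 against 10.9 and 9.48 CPM (-5.07, 1.2e-12). Slc6a12, a betaine and GABA transporter, had 94 UMIs in the negative and 2 in the low bin, a ratio of shares of 35.4 (95% interval 9.54 to 296.9), and Ppp1r1a had 265 and 2, a ratio of 99.9 (27.4 to 829.3). These intervals sum the UMIs of both pools and cover counting error only. Of 14 interferon-stimulated genes 7 were higher in fibroblast-like cells, Ifi27l2a among them, where 9.87% of all genes tested were called higher. The median depth of these cells was 4966 and 4539 UMIs in the negative and 6200.5 and 7061 UMIs in the low bin, and the median mitochondrial share 1.37% and 1.69% against 2.13% and 2.15%. Their part in these values was not tested.

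In ependymal-like cells (101 and 100 cells against 42 and 25) Rbp4, the retinol carrier, was at 2.82 and 68.1 CPM in the negative and 448.2 and 984.0 CPM in the low bin (log2 change 4.36, SE 0.43, adjusted p = 2.8e-09). Mgarp was at 0 and 9.29 against 167.7 and 167.4 CPM (5.15, 8.6e-09) and Ferd3l, a bHLH transcription factor gene, at 2.82 and 7.74 against 45.1 and 172.4 CPM (4.23, 5.3e-05), the last lost without low pool 2 (0.063). Without negative pool 1 or 2 the Rbp4 value was 3.30 or 7.70 and the Mgarp value 4.05 or 8.58. Lower genes had few UMIs in the low bin. Col6a5 had 92 in the negative and 3 in the low bin (ratio of shares 11.5, 95% interval 3.81 to 56.7), Klkb1 59 and 1 (22.1, 3.81 to 886.5) and Cdh7 54 and 1 (20.2, 3.48 to 812.6), again with the pools summed and for counting error only. The Cdh7 call was lost without low pool 1 (0.061). The summed astrocyte markers were 2178 and 2321 against 5062 and 3834 CPM in these cells, with 8 of 12 higher and 1 lower. The summed ependymal markers were 11320 and 10700 against 5513 and 5072 CPM, with 4 of 8 lower. The median depth was 6950 and 6851 against 7191 and 7772 UMIs, and the median mitochondrial share 1.99% and 2.03% against 1.63% and 1.76%. Their part in these values was not tested.

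Finally, the low-minus-negative change in astrocyte-like cells was compared with that of ATV-CD98hc, which shares no library with it. The difference was called for 245 of 17469 genes, 22 higher (0.126%) and 223 lower (1.28%) in ATV-TfR. Far fewer were called with the ambient profile subtracted, as given below. Own genes were picked by levels that include the ATV-CD98hc negative libraries, which this difference also uses. The choice of the genes named here is thus not independent of the values tested. The rule passed 10 higher and 1 lower, so the named genes do not represent the lower calls. Crym fell from 150.9 and 170.9 to 13.9 and 18.2 CPM in ATV-CD98hc mice, more than in ATV-TfR mice (difference 2.46, SE 0.27, adjusted p = 1.4e-04), and this call held with each library left out. Within 1 astrocyte-like cluster, led by Agt, the difference had the opposite sign (-0.48). Gfra1, a receptor for glial cell line-derived neurotrophic factor, went from 107.7 and 118.8 to 53.9 and 63.7 CPM in ATV-CD98hc mice and from 79.3 and 73.3 to 75.0 and 71.3 CPM in ATV-TfR mice (difference 0.90, SE 0.14, adjusted p = 0.0041). It was not called with the ambient profile subtracted (adjusted p = 0.051), nor within any of 5 astrocyte-like clusters (-0.35 to 0.75). Cluster shares also moved in ATV-CD98hc mice, where a cluster led by C030018K13Rik and Chrdl1 went from 25.01% and 30.6% to 13.3% and 15.5% of astrocyte-like cells. Rpe65 (1.09, 0.016), Lama3, a laminin chain (1.09, 0.023), and the glycine transporter gene Slc6a9 (-0.67, 0.030) were lost without 4 or more libraries each and with the ambient profile subtracted (adjusted p = 0.12, 0.15 and 0.09). Gfra1 and Lama3 had the opposite sign in a cluster with Aldh1a1 among its leading genes. The count of 245 became 130 without ATV-TfR negative pool 1 and 514 without ATV-CD98hc negative pool 1.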

How the data were processed

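Single-cell RNA was captured in droplets from sorted brain cells. The deposited matrix holds UMI counts of 32285 genes, made by the authors with Cell Ranger 7.1.0, per the file headers. The submitters' processing notes also name Seurat 4 and 5 and the builds mm10 and GRCm38, with no role given. Barcodes were assigned to libraries by their numeric suffix and the deposited sample index. The members and gene lists were chosen with earlier results of these data known.

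Barcodes were filtered on 500 genes, 800 UMIs and 10% mitochondrial UMIs, and doublets were removed with Scrublet through Scanpy 1.11.5 at its automatic threshold. Where that failed (ATV-CD98hc low replicate 2), scores above percentile 94 were removed. From 2000 variable genes and 50 components with 15 neighbours, Leiden clustering at resolution 1.5 gave 31 clusters; 8 were split, giving 71, of which 47 were named. A name needed at least 0.5 of a list and 3 markers, a second list at no more than 0.75 of that share, and no more markers of another list than its own among the 10 leading genes. A marker was detected at 0.05 of cells and 0.25 of its highest cluster.

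Cell counts and UMI sums were tested with edgeR 4.0.16 (quasi-likelihood, Benjamini-Hochberg adjustment, threshold 0.05) over all 11 libraries. UMI sums needed at least 20 cells and were fitted with TMM factors and filterByExpr. Cell counts were fitted without these and without a minimum of cells, with the kept cells of the library as offset. Changes of class shares are thus not corrected for composition. Control IgG low sums were too small for the astrocyte-, ependymal-, oligodendrocyte- and pericyte-like fits, and ATV-CD98hc and control IgG low sums for the smooth muscle-like fit. For edgeR, SE was computed as the size of the log2 change divided by the square root of the F statistic. DESeq2 1.42.0 was an alternative. Each pool is 2 mice, so p-values rest on the spread between pools. That spread was estimated jointly over all groups of treatment and bin. The bins of a pool were paired only in the alternatives with a block, so the main p-values do not measure the spread of the paired change. Fits were tested on simulated data. The ambient alternative subtracted each library's total profile, scaled by markers of other classes.

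Bins of a pool come from the same animals, so replicate numbers pair them. The difference between pools correlated between the bins at 0.11 to 0.50 over the 9 classes. Named genes were own genes of a class with a mean level of 5 or more in log2 CPM, adjusted p below 0.05 and the same sign in both pools, taken by fold change, and up to 4 called members of a list. Tf and Clec7a were not analysed here.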

Additional observations from a re-analysis of the deposited data

Results flagged for a closer look

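The change from the negative to the low bin differed between treatments for several classes, each by a test of the difference itself. Against ATV-CD98hc, the log2 difference was -3.77 for microglia-like, -2.66 for endothelial-like, -2.47 for fibroblast-like, -2.24 for T or NK and 2.93 for neuron-like cells. The fibroblast value was not called without ATV-CD98hc negative pool 1 (adjusted p = 0.053), and the T or NK value was lost without any 1 of 6 libraries. Among the cells outside the astrocyte-like class the endothelial, fibroblast and T or NK values were not called (adjusted p = 0.37, 0.54 and 0.85), and with doublet scores above percentile 90 removed the T or NK value turned to 2.58 and the endothelial value was not called (adjusted p = 0.085). The neuron-like value rests on 1 and 6 cells in the ATV-CD98hc low bin and was lost without any 1 of 5 libraries. Dividing cells differed too, with 2 such cells in the ATV-CD98hc low bin, and immature neuron-like cells, with 0.

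Against control IgG, whose negative bin has 1 library here, the difference was 8.62 for astrocyte-like, 2.03 for oligodendrocyte-like, -3.43 for choroid plexus epithelial-like, -4.19 for T or NK, -4.70 for border macrophage-like, -4.79 for B and -5.91 for fibroblast-like cells. It was called as well for dividing cells (1 in the control IgG low bin), immature neuron-like cells (0) and monocytes or dendritic cells (62). The T or NK value turned to 3.55 with doublet scores above percentile 90 removed. Outside the astrocyte-like class the T or NK, choroid plexus epithelial, border macrophage and B cell values were not called (adjusted p = 0.39, 0.84, 0.22 and 0.35). The B cell value rests on 1 and 4 against 1 and 7 ATV-TfR cells, and was lost without either ATV-TfR negative pool. The oligodendrocyte-like value was lost without any 1 of 4 libraries, the dividing cell value without any 1 of 3 and the immature neuron-like value without any 1 of 5.

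In astrocyte-like cells the change differed from that of ATV-CD98hc for 245 genes. That count was far smaller with the ambient profile subtracted and moved when single libraries were left out, as given below. Of the named genes the log2 difference was 2.46 for Crym, 1.09 for Rpe65, 1.09 for Lama3, 0.90 for Gfra1 and -0.67 for Slc6a9. They were picked in part by levels in the ATV-CD98hc negative libraries, which the difference also uses. Groups of 2 pools allow no check for a library that stands apart from its group.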

How the results depend on the processing

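Of 622 class shares recomputed under alternatives, 547 kept their direction and side of the threshold, and of 1533 values of named genes 1235 did. With the pool as a replicate block, the calls were 11 classes for the make-up, 9 against ATV-CD98hc and 13 against control IgG, 260 genes in astrocyte-like cells, 8044 over the other classes and 280 for the difference from ATV-CD98hc. With the block, calls were gained for astrocyte- (1.58) and smooth muscle-like cells (1.44) against ATV-CD98hc and for endothelial- (-1.06), ependymal- (-1.79) and smooth muscle-like cells (-1.71) against control IgG, those of Ccnjl and Rsph9 were lost, and the microglia-like count was 1677. No other call of a class or named gene changed.

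Without 1 library, the make-up count was 9 to 11, that against ATV-CD98hc 5 to 8 and that against control IgG 5 to 10. The last was 6 with at least 1000 genes and 2000 UMIs, 6 in female and 6 in male cells. Genes called in astrocyte-like cells (235) were 104 to 298 without 1 library, 17 with the ambient profile subtracted, 103 in thinned cells, 137 in female and 54 in male cells, 427 with no filter, 1012 with sums per animal and a replicate block, and 95, 30, 79, 50 and 39 within clusters 0, 1, 2, 3 and 5 (the cluster alternatives were chosen after seeing the data). Over the other classes (6876) they were 3868 to 7544 without 1 library, 3695 with the ambient profile subtracted, 3994 with at least 50 UMIs, 2442 in thinned cells, 2534 in female and 2129 in male cells (fewer classes fitted), and 10778 with no doublet removal. For the difference from ATV-CD98hc (245) they were 130 to 514, 32, 114, 127 and 82 in the same order without the UMI minimum, 497 with no filter, and 74, 58, 81, 53 and 40 within those clusters. The causes were not tested.

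Signs turned for choroid plexus epithelial-like cells without ATV-TfR low pool 1 (-0.13, against up to 0.23 without another library), for fibroblast-like (0.58) and T or NK cells (0.0755) outside the astrocyte-like class, and for T or NK cells with doublet scores above percentile 90 removed (5.44; 2.58 against ATV-CD98hc and 3.55 against control IgG). Within clusters they turned for Crym (-0.48, cluster 1), Lama3 (-0.22, cluster 0), Gfra1 (-0.26, cluster 0, and -0.35, cluster 1) and Slc6a9 (0.0141, cluster 1) in the difference from ATV-CD98hc, for Enpp6 (-0.41, largest cluster), and for Ccnjl (0.10, cluster 5) and Nnat (-0.11, cluster 2, and -0.0016, cluster 3). Fits by sex could not be made for ependymal- and smooth muscle-like cells, for choroid plexus epithelial-like cells in females, or for endothelial- and pericyte-like cells in males. Fits per animal could not be made for ependymal- and smooth muscle-like cells, nor one within the largest cluster for endothelial- and fibroblast-like cells or with percentile 90 for endothelial-like cells. Some classes had few cells in the low bin, such as smooth muscle- (61 and 35) and ependymal-like cells (42 and 25), and the part of depth in their results was not tested.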

Other observations

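Some unnamed clusters had the following counts, given without a test. A cluster led by Thbs4 and Gfap had 6 and 4 cells in the negative bin and 32 and 23 in the low bin. A cluster with Gpr50 and Rax, genes of tanycytes, had 8 and 15 against 26 and 26 cells, and relative to all cells it was larger in the low bin in pool 1 only.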
